A study of Mus musculus with 2 samples.

Results

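Among 37671 kept nuclei of the series, 190 carried the RNA signature of striatal D1 medium spiny neurons, and all 190 lay in the 5XFAD library. They were chosen from raw UMIs (unique molecular identifiers, each standing for 1 captured RNA molecule). A barcode was kept if it had at least 500 detected genes and under 5% of its UMIs from mitochondrial genes. A D1 nucleus then had at least 2 UMIs each of Rarb, Rgs9 and Drd1, with Drd1 above 2 times Drd2. These 4 genes chose the nuclei, so their values are descriptions only, and no test was made. The D1 nuclei were 190 of 15408 kept nuclei of the 5XFAD library, or 1.23% (exact binomial 95% interval 1.06 to 1.42%). In the other library they were 0 of 22263 (exact binomial 95% interval 0 to 0.0166%).

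The nuclei came from frozen hippocampus of mice aged 8 months, whose single nuclei were captured in droplets and sequenced from the 3′ end of RNA. All mice carried 5XFAD, human transgenes with familial Alzheimer mutations under the Thy1 promoter, which is active in neurons. The genotypes were 5XFAD and 5XFAD x MR1 KO, with 1 library each, and each library pooled 1 male and 1 female mouse. MR1 presents vitamin B metabolites to MAIT cells. Mr1 RNA did not follow the knockout label (61 UMIs in kept nuclei of the 5XFAD library, 93 in the other), so the second library is called here the library labelled MR1 knockout. That library held no D1 nucleus, so no comparison of genotypes was possible, and what follows describes the 5XFAD library. Nuclei of 1 library cannot stand in for replicate mice, so every interval is a 95% interval for counting error alone.

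Medium spiny neurons are the GABA-releasing projection neurons of the striatum. Those of the direct pathway carry the D1 dopamine receptor, which couples through the G protein Golf to adenylyl cyclase and raises cAMP, and they release substance P and dynorphin. Those of the indirect pathway carry the D2 receptor, which lowers cAMP, together with an adenosine receptor and enkephalin. The hippocampus named in the labels holds glutamatergic principal neurons and local interneurons, and the striatum is a separate structure in front of and lateral to it. Rarb, the retinoic acid receptor beta, and Rgs9, a brake on G protein signalling, are enriched in medium spiny neurons of either pathway.

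The D1 nuclei were as deep as the other inhibitory neurons of the library. They held 1806918 UMIs in all, with a median of 7448.5 per nucleus (range 2238 to 37833), against medians of 6523.5 in D2 nuclei, 7292 in other GABAergic nuclei and 4066 over all kept nuclei of the library. The minimum UMI numbers of the rule favour deep nuclei. Their median share of mitochondrial UMIs was 1.30%, against 1.77% over all kept nuclei. The deposited libraries held 25238 and 26212 barcodes with 106861726 and 85678909 UMIs. Of the deposited barcodes 182 stood in both libraries, and no D1 barcode was among the kept barcodes of the other library.

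Nearly all D1 nuclei with a known mouse of origin came from the male mouse. Nuclei were assigned by Xist (at least 2 UMIs and no Y-linked UMI, female) and by Ddx3y, Eif2s3y, Kdm5d and Uty (at least 1 UMI and no Xist, male). The male mouse gave 109 D1 nuclei and the female mouse 7, while 39 held RNA of both sexes and 35 could not be assigned. The male share of assigned D1 nuclei was 94.0% (88.0 to 97.5%), whereas the male share of all assigned nuclei of the library was 38.6%. D1 nuclei thus made up 2.64% of the male mouse's nuclei (2.18 to 3.18%) and 0.107% of the female mouse's (0.0429 to 0.220%). Scrublet, which scores barcodes by their likeness to simulated doublets, marked 52 of the 190 D1 nuclei (27.4%), against 19.5% of all kept nuclei. It marked all 7 D1 nuclei of the female mouse, 15 of the 109 of the male mouse and 28 of the 39 with RNA of both sexes. Without the marked nuclei, 138 D1 nuclei were left, of which 94 were male, 0 were female, 11 held RNA of both sexes and 33 were unassigned. Sex, animal and what was dissected cannot be told apart, since the library holds 1 mouse of each sex.

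**Figure D1:**
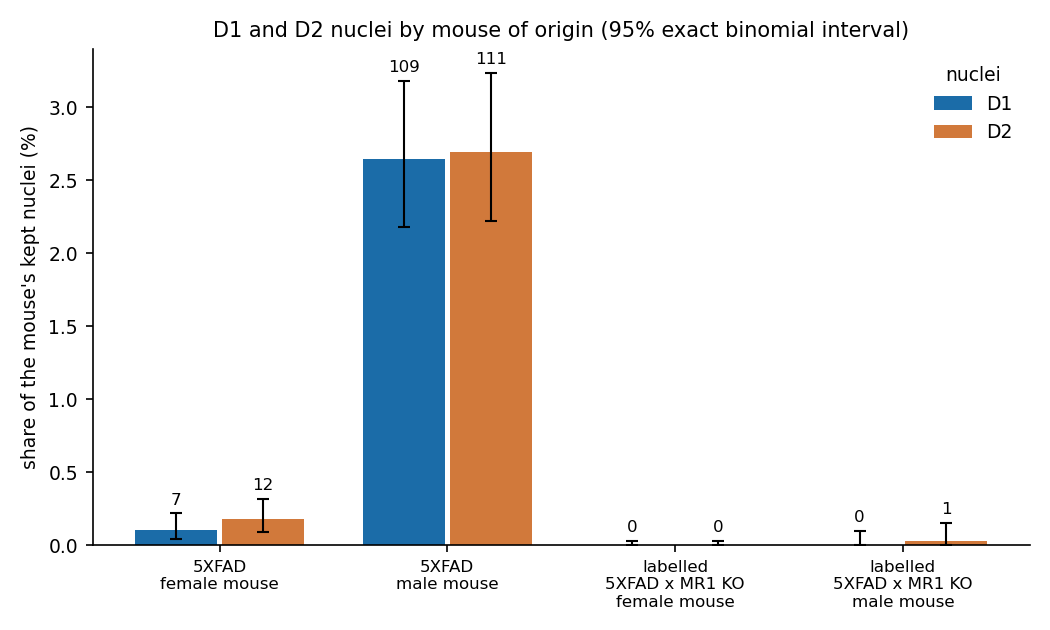
Share of each mouse's kept nuclei that were D1 or D2 nuclei (y axis, %), by library and by mouse of origin; bars are shares, whiskers are exact binomial 95% intervals and the number above each bar is the count of nuclei. The male mouse of the 5XFAD library stands apart with 109 D1 and 111 D2 nuclei, while the mice of the library labelled 5XFAD x MR1 KO gave 0 D1 nuclei and 1 D2 nucleus.

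D1 and D2 nuclei came in nearly equal numbers at the limit of 2 receptor UMIs. At least 3 receptor UMIs gave a D1 share of D1 plus D2 nuclei of 38.8%, so the share depends on this limit. Of the 1047 nuclei of the library with at least 2 UMIs each of Rarb and Rgs9, 190 were D1 nuclei and 204 were D2 nuclei by the mirrored rule, so D1 nuclei were 48.2% of the sum. The D2 nuclei were split over the mice in the same way, with 111 male and 12 female. Receptor RNA was sparse, and 321 of the 1047 nuclei had no UMI of Drd1 or Drd2. Another 192 had 1 Drd1 UMI and no Drd2, and 120 had 1 Drd2 UMI and no Drd1. At least 2 UMIs of both receptors, with neither above 2 times the other, were found in 9 nuclei, and 2 of the 190 D1 nuclei held a Drd2 UMI. In the library labelled MR1 knockout 5 nuclei had at least 2 UMIs of Rarb and of Rgs9, of which 1 was a D2 nucleus.

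For 4 genes that define or mark the D1 nuclei, the 250 bases before the transcription start are shown to place the chosen RNA in the genome (RefSeq windows, GRCm38.p6, 5′ to 3′ on the strand of the gene). The genes are Rarb and Drd1, which the rule used, and Tac1 and Isl1, which it did not. The windows are Rarb at chr14:16575477-16575726 (minus strand), Drd1 at chr13:54054781-54055030 (minus strand, the second of its 2 start sites), Tac1 at chr6:7554811-7555060 (plus strand) and Isl1 at chr13:116309689-116309938 (minus strand). Capitals mark every match, on either strand, to the DR5 retinoic acid response element (a direct repeat bound by retinoic acid receptors), TGACG (the half-site of the cAMP response element), GGGCGG (the GC box) or TATAAA (the TATA box).
Rarb: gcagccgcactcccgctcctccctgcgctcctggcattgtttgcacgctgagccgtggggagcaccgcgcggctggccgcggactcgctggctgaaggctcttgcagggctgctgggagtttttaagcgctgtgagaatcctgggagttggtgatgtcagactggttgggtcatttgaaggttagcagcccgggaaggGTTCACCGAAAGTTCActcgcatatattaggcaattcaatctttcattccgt
Drd1: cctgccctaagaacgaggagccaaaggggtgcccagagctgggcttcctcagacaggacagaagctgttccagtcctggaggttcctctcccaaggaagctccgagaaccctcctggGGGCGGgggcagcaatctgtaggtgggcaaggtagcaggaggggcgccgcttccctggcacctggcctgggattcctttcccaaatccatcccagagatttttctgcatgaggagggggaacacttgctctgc
Tac1: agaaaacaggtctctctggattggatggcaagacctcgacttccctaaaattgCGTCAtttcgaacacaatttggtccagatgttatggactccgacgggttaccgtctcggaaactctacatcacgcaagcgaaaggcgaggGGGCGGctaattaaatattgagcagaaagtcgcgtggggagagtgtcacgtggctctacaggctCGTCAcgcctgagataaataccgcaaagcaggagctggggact
Isl1: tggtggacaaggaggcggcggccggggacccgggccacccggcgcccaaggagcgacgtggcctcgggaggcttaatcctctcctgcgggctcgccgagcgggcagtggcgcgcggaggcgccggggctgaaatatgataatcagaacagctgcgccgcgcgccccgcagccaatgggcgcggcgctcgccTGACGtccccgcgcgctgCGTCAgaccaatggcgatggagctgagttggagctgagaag
The Rarb window holds the retinoic acid repeat at bases 52 to 37 before the start, and its string was found in 4 of 32851 windows of the same length (0.0122%). That share is of this string alone, not of all retinoic acid response elements. The string equals the Rarb repeat apart from its spacer, so nothing is read from the match. The Tac1 window holds TGACG on the opposite strand at bases 197 to 193 and 43 to 39, and the GC box at 107 to 102. The Isl1 window holds TGACG at bases 59 to 55 and, on the opposite strand, at 41 to 37. TGACG was found in 17.8% of all windows, GGGCGG in 32.7% and TATAAA in 12.4%. The Drd1 window holds only a GC box, at bases 133 to 128. A match is a description of letters, not a binding site.

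The genes that chose the nuclei showed how close many lay to the limits. Rarb had 2 to 53 UMIs per D1 nucleus with a median of 12, Rgs9 had 2 to 18 with a median of 5, and Drd1 had 2 to 5 with a median of 2. Exactly 2 Drd1 UMIs were found in 114 of the 190 nuclei, exactly 2 Rgs9 UMIs in 35 and exactly 2 Rarb UMIs in 8. Just outside the rule, 31 nuclei missed it by a single Rgs9 UMI and 9 by a single Rarb UMI. In CPM, the UMIs of a gene per 1000000 UMIs of the set, Tac1 stood at 236 in D1 nuclei, 215 in the 192 nuclei with 1 Drd1 UMI, 190 in the 321 with no receptor UMI, 75.2 in the 120 with 1 Drd2 UMI and 52.1 in D2 nuclei. Ebf1 followed the same order, at 158, 124, 106, 13.5 and 7.22 CPM. Penk ran the other way, at 44.3, 41.2, 151, 467 and 478 CPM. In these 3 genes the nuclei with 1 Drd1 UMI were close to the D1 nuclei, and those with no receptor UMI lay between. Other genes were farther apart, with Foxp2 at 576 against 783 CPM and Adora2a at 6.47 CPM (11 UMIs) in nuclei with 1 Drd1 UMI against 0.553 CPM (1 UMI) in D1 nuclei.

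Tac1 and Pdyn, the remaining markers given with this cell type, were both high in the D1 nuclei. Tac1 (ENSMUSG00000061762, chromosome 6, 7554879 to 7565834), the precursor of substance P, had 0 to 16 UMIs per D1 nucleus with a median of 1, and 143 of 190 nuclei had at least 1. It stood at 236 CPM in D1 nuclei (214 to 260) and at 52.1 CPM in D2 nuclei (42.4 to 63.3), a ratio of 4.54 (3.65 to 5.69). Pdyn (ENSMUSG00000027400, chromosome 2, 129686565 to 129699844), the precursor of dynorphins, was found in 57 of 190 D1 nuclei, with up to 8 UMIs. It stood at 54.2 CPM in D1 nuclei (44.0 to 66.1) and 4.12 CPM in D2 nuclei (1.78 to 8.13), a ratio of 13.1 (6.42 to 31.3). Both genes were at least 2-fold higher in D1 than in D2 nuclei, as were 18 of 5649 genes compared (0.319%).

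Some striatal RNA was also found in nuclei of other kinds. In the 5XFAD library Tac1 stood at 42.7 CPM in excitatory nuclei, 46.9 CPM in other GABAergic nuclei and 72.2 CPM in oligodendrocytes, against 8.51 CPM in excitatory nuclei and 69.9 CPM in other GABAergic nuclei of the library labelled MR1 knockout. The D2 level of Tac1 was therefore near that of the other cell types of its library, while the D1 level was above all of them. Penk stood at 44.3 CPM in D1 nuclei and 34.8 CPM in excitatory nuclei, which held 30.4 CPM in the other library. Ppp1r1b stood at 7.62 CPM in excitatory nuclei of the 5XFAD library and 3.12 CPM in those of the other library. The part of free RNA in these levels was not tested. Excitatory nuclei (2214) had at least 2 Slc17a7 UMIs and no Rarb, Rgs9 or Gad1, other GABAergic nuclei (169) at least 2 UMIs each of Gad1 and Gad2 and no Rarb or Rgs9, and oligodendrocytes (76) at least 2 UMIs each of Mog and Mobp and no Slc17a7 or Rgs9.

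**Figure D2:**
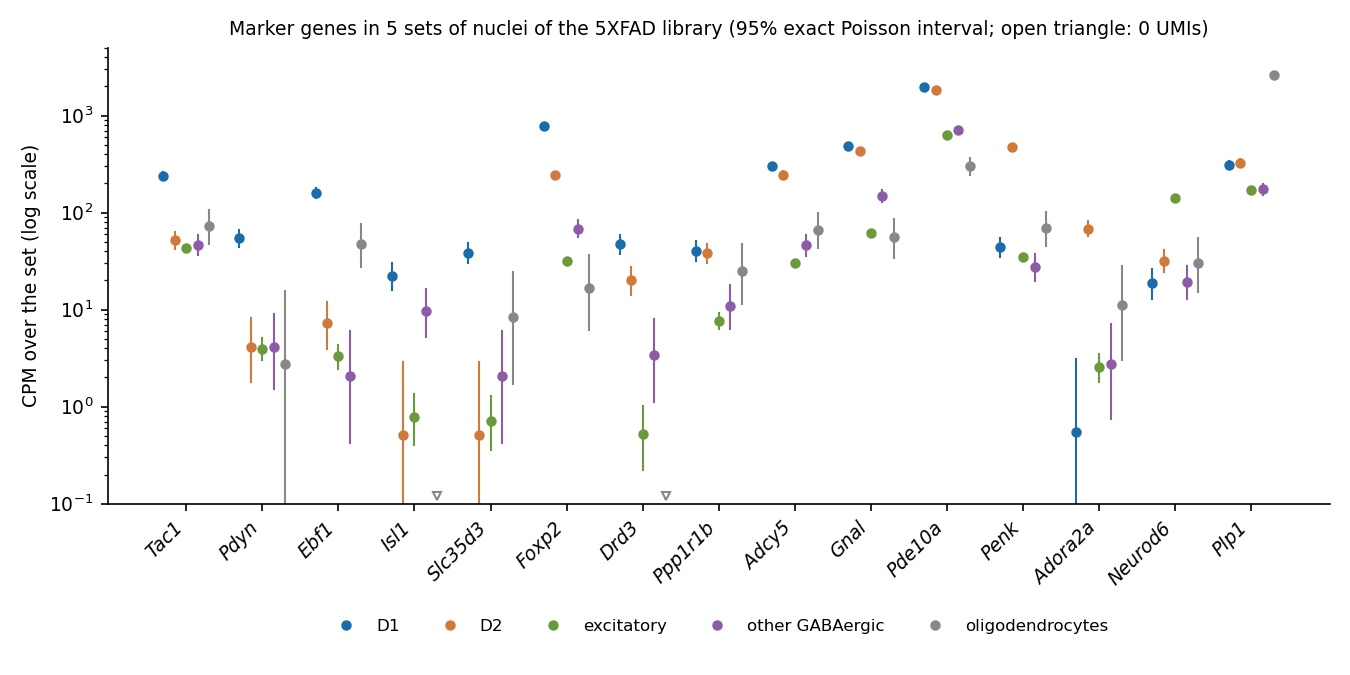
Level of 15 genes (y axis, CPM, log scale) in 5 sets of nuclei of the 5XFAD library; points are levels over the summed UMIs of a set, lines are exact Poisson 95% intervals and open triangles stand for 0 UMIs. Tac1, Pdyn, Ebf1, Isl1 and Slc35d3 are highest in D1 nuclei, Penk and Adora2a in D2 nuclei, while Ppp1r1b, Adcy5, Gnal and Pde10a are alike in D1 and D2 nuclei and lower in the other sets.

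Apart from a short list of genes, D1 and D2 nuclei had the same RNA content within 2-fold. Of 5649 genes with at least 100 UMIs over both sets, 18 were at least 2-fold higher in D1 nuclei (0.319% of those compared) and 12 were at least 2-fold lower (0.212%), with a median log2 ratio over all genes of 0.01. The rule separated the sets by Drd1 and Drd2, so nothing is read from these shares. Among 10 direct pathway genes, 5 had enough UMIs and all 5 were at least 2-fold higher, with a median log2 ratio of 2.19. Ebf1 (ENSMUSG00000057098, chromosome 11, 44617317 to 45008091), a transcription factor needed for the direct pathway neurons to mature, was found in 93 of 190 D1 nuclei. It stood at 158 CPM in D1 nuclei and 7.22 CPM in D2 nuclei, a ratio of 21.9 (12.9 to 40.6). Zfp521, a zinc finger factor that works with Ebf1, stood at 54.2 against 11.9 CPM, a ratio of 4.57 (2.88 to 7.55). Sfxn1, a mitochondrial serine transporter, stood at 57.0 against 26.3 CPM, a ratio of 2.17 (1.54 to 3.09).

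The remaining direct pathway genes had under 100 UMIs over both sets. Isl1, a homeodomain factor of direct pathway neurons, had 40 UMIs over 33 D1 nuclei and 1 UMI over all D2 nuclei, a ratio of 42.9 with an interval from 7.28 to 1738. Slc35d3, a solute carrier linked to the transport of the D1 receptor to the membrane, had 70 UMIs over 53 D1 nuclei and 1 UMI in D2 nuclei. Asic4, an acid-sensing channel family member, had 39 UMIs against 6. Chrm4, the M4 acetylcholine receptor that opposes D1 signalling, had 6 UMIs in D1 nuclei and 0 in D2 nuclei, at least 2.15-fold higher when set against 3 counts over the D2 nuclei. Eya1 did not separate the sets, at 29 and 26 UMIs with a ratio of 1.20 (0.681 to 2.12). These intervals are for counting error and say nothing of other mice.

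Indirect pathway genes showed the mirror image. Of 10 genes, 4 had enough UMIs and all 4 were at least 2-fold lower in D1 nuclei (0.212% of all genes). Their median log2 ratio was -2.72. Adora2a, the adenosine receptor of these neurons, had 1 UMI over the 190 D1 nuclei and 133 over the 204 D2 nuclei. Penk, the enkephalin precursor, stood at 44.3 CPM in D1 nuclei and 478 CPM in D2 nuclei, a ratio of 0.0925 (0.0727 to 0.116). Grik3, a kainate receptor subunit, stood at 30.4 against 123 CPM, and Ptprm, a receptor phosphatase, at 117 against 299 CPM. Below 100 UMIs, the orphan receptors Gpr6 and Gpr52 had 11 and 1 UMIs in D1 nuclei and 70 and 30 in D2 nuclei. Oprd1, the delta opioid receptor, had 7 UMIs against 59, and Sp9, a transcription factor of indirect pathway neurons, had 4 against 21. Six3 and Plxdc1 were less clear, at 38 against 53 and 19 against 33 UMIs, with intervals that include 1.

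Genes outside the known pathway lists also separated the sets. Cntnap3, a neurexin-family cell adhesion molecule, was found in 139 of 190 D1 nuclei and stood at 206 CPM in them against 18.0 CPM in D2 nuclei, a ratio of 11.4 (8.08 to 16.7). Sntg2, a syntrophin, stood at 111 against 21.1 CPM, a ratio of 5.26. Il1rapl2 stood at 190 against 58.8 CPM and Onecut2, a transcription factor, at 132 against 48.0 CPM. Foxp2, a forkhead factor of striatal neurons linked to vocal learning, was found in 172 of 190 D1 nuclei with 0 to 64 UMIs and a median of 5. It stood at 783 CPM in D1 nuclei and 242 CPM in D2 nuclei, a ratio of 3.24 (2.92 to 3.60). Reln, a secreted glycoprotein, stood at 276 against 131 CPM, a ratio of 2.11 (1.81 to 2.46). In the other direction, Adk, which clears adenosine, stood at 69.2 CPM in D1 nuclei and 193 CPM in D2 nuclei, a ratio of 0.358. Npas3 stood at 130 against 324 CPM, Ndst3 at 34.9 against 109, Unc5d, a netrin receptor, at 155 against 330, and Gucy1a1, a subunit of the nitric oxide receptor, at 57.6 against 124. Ebf1, Reln and Penk overlap genes on the opposite strand, whose reads cannot be told apart where counting ignored strand.

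**Figure D3:**
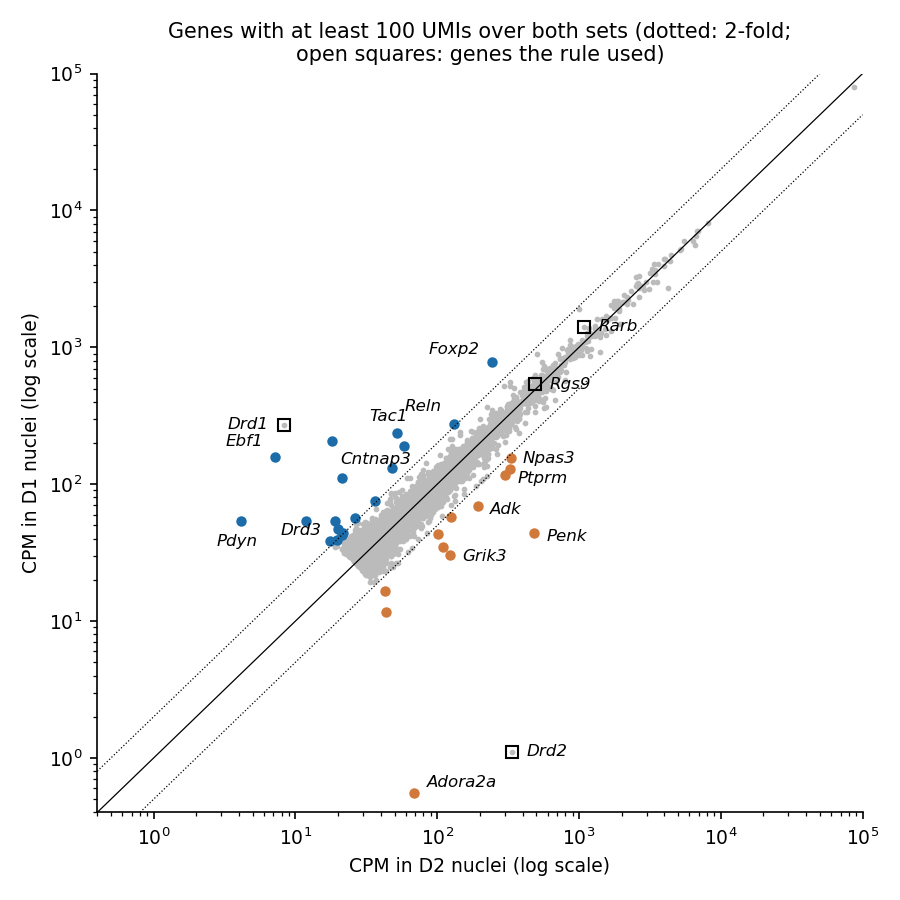
Level of each gene with at least 100 UMIs over both sets in D1 nuclei (y axis, CPM, log scale) against D2 nuclei (x axis, CPM, log scale); grey points are genes, blue and orange points the 18 and 12 genes past 2-fold, and open squares the genes the rule used. The grey points lie along the line of equal level, and Ebf1, Pdyn, Cntnap3, Adora2a and Penk lie farthest from it.

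Within the male mouse, which held 109 D1 and 111 D2 nuclei, most of the separation was also seen. The D1 over D2 ratio there was 74.2 for Ebf1, 16.0 for Cntnap3, 5.56 for Tac1 and 3.03 for Foxp2. It was 0.0896 for Penk, and Adora2a had 0 UMIs in D1 nuclei of the male mouse against 67 in its D2 nuclei. Without the nuclei that Scrublet marked, the ratios were 23.4 for Cntnap3, 17.8 for Pdyn, 4.73 for Tac1 and 0.0862 for Penk. Of 24 genes named by rule or list that were past 2-fold, 23 remained past it in the male mouse and 23 without the marked nuclei. The exceptions were Drd3, at 1.51 in the male mouse, and Oprk1, at 1.73 without the marked nuclei. The 24 genes were picked past 2-fold in sets that include these nuclei, so staying past it is partly built in. Under 1% mitochondrial UMIs 18 of 24 stayed, and with at least 3 UMIs of a receptor 20. In the female mouse it was 5 of the 15 genes with a value. Several lower genes moved by over 1.5 times. The ratio of Npas3 went from 0.399 to 0.151 in the male mouse and 0.168 without the marked nuclei, that of Unc5d from 0.469 to 0.195 in the male mouse, and that of Ndst3 from 0.319 to 0.140 without the marked nuclei. Without the marked nuclei the ratio was also farther from 1 for Grik3 (0.0942), Adk (0.221), Sntg2 (9.28), Zfp521 (9.30), Il1rapl2 (5.57) and Sfxn1 (3.25). The 7 D1 nuclei of the female mouse held 6 Tac1 UMIs, or 64.2 CPM, against 63.4 CPM in its 12 D2 nuclei.

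Genes shared by medium spiny neurons of either pathway were alike in D1 and D2 nuclei and high against other neurons. Of 18 striatal identity genes, 14 could be compared with D2 nuclei, and only Foxp2 was past 2-fold (median log2 ratio 0.09). Over all 5649 genes 0.319% were higher and 0.212% lower, so closeness to D2 nuclei was not particular to this list. Against excitatory nuclei 11 of 15 were at least 2-fold higher and 0 lower (median log2 ratio 1.95), where 5.19% of all 11449 genes were higher and 6.95% lower and the median was -0.04. Against other GABAergic nuclei 10 of 12 were at least 2-fold higher and 0 lower (median log2 ratio 1.70), where 5.63% of all 5259 genes were higher and 5.69% lower and the median was -0.03. Ppp1r1b, which encodes DARPP-32, the inhibitor of protein phosphatase-1 downstream of D1 receptors, stood at 40.4 CPM in D1 nuclei, 38.2 in D2 nuclei and 7.62 in excitatory nuclei. Scn4b, a sodium channel beta subunit, stood at 59.2 against 4.04 CPM, and Meis2, a homeobox factor, at 1027 against 158 CPM. Sp8 had 0 UMIs in D1 nuclei and Zfp503 had 4.

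The comparison sets differed in their mice, with a male share of assigned nuclei of 30.4% in excitatory and 55.6% in other GABAergic nuclei against 94.0% in D1 nuclei. Within the male mouse, 7 of 11 identity genes were at least 2-fold higher than in excitatory nuclei (median log2 ratio 1.65), where 5.3% of all 6571 genes were higher. Against other GABAergic nuclei of that mouse it was 8 of 10, with 0 lower (1.54), where 8.57% of all 2625 genes were higher and 8.27% lower. The count thus kept its direction where animal and sex were the same.

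The cascade from the D1 receptor to cAMP was strongly represented in D1 nuclei. Of 36 signalling genes, 16 were at least 2-fold higher than in excitatory nuclei and 1 was lower (median log2 ratio 0.72), and 15 of 27 were higher than in other GABAergic nuclei and 1 was lower (1.13). Over all genes the shares were 5.19% higher and 6.95% lower against excitatory nuclei, and 5.63% and 5.69% against other GABAergic nuclei. Gnal, the alpha subunit of Golf, stood at 483 CPM in D1 nuclei against 61.3 CPM in excitatory nuclei, a ratio of 7.87 (7.17 to 8.64). Its partner Gng7 stood at 206 against 37.6 CPM. Adcy5, the adenylyl cyclase of striatal neurons, was found in 173 of 190 D1 nuclei and stood at 299 CPM, a ratio over excitatory nuclei of 9.97 (8.79 to 11.3). Regulatory subunit Prkar2b of protein kinase A stood at 132 against 30.6 CPM, whereas the catalytic subunit Prkaca stood at 34.9 against 33.9 CPM, a ratio of 1.03 (0.778 to 1.34).

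Phosphodiesterases, which break down cyclic nucleotides, did not differ in a single direction. Pde1c stood at 357 CPM in D1 nuclei and 13.3 CPM in excitatory nuclei, a ratio of 26.9 (22.9 to 31.6), and Pde7b at 1017 against 66.2 CPM, a ratio of 15.4. Pde1b stood at 152 against 20.8 CPM. Pde10a, a striatal phosphodiesterase, was 3.14-fold higher (3.02 to 3.26). Pde4d was the lower gene of the list in both comparisons, at 496 CPM against 1329 CPM in excitatory and 1703 CPM in other GABAergic nuclei. Against D2 nuclei 0 of 31 signalling genes passed 2-fold in either direction, with log2 ratios from -0.38 to 0.49 and a median of 0.07. Over all 5649 genes 0.319% were higher and 0.212% lower, so 0 of 31 lay near these shares. Within the male mouse, 13 of 29 signalling genes were at least 2-fold higher than in excitatory nuclei and 1 lower (5.3% and 8.72% over all genes), and Adcy5 was 12.9-fold higher.

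**Figure D4:**
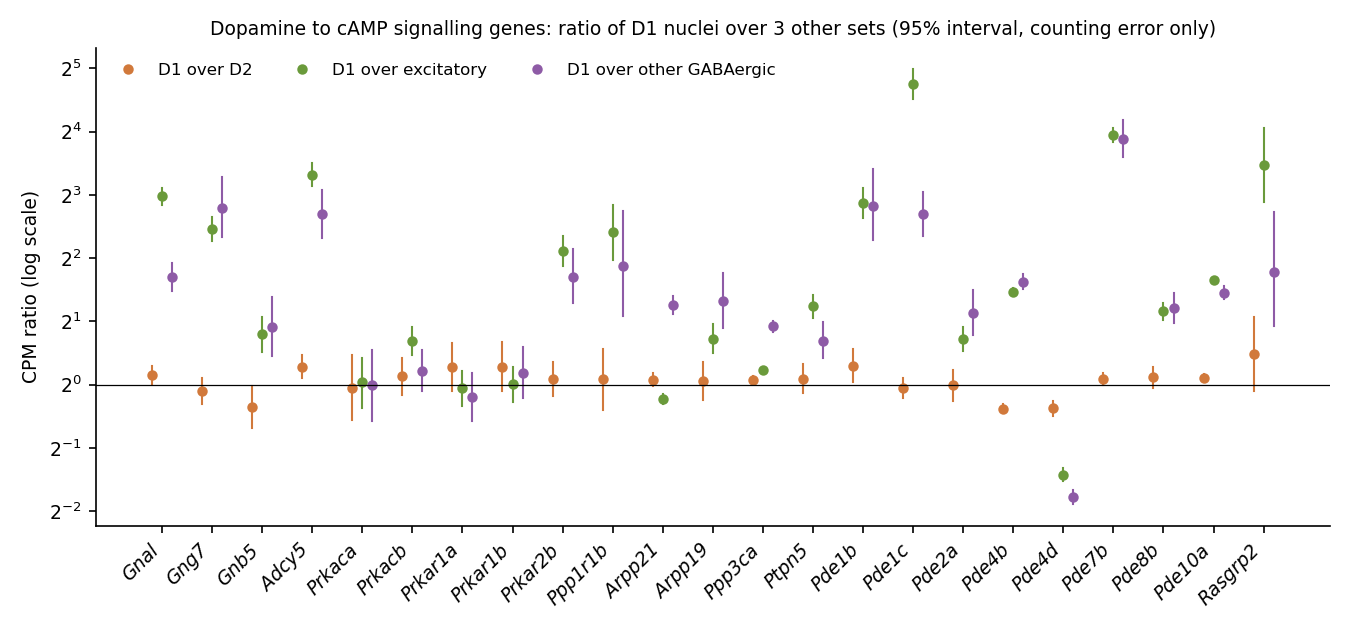
Ratio of D1 nuclei over D2, excitatory and other GABAergic nuclei (y axis, CPM ratio, log scale) for 23 of the 36 signalling genes; points are ratios and lines their exact 95% intervals for counting error. Ratios over D2 nuclei stay near 1, and those over excitatory nuclei reach 26.9 for Pde1c and lie below 1 for Pde4d.

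Genes of highest ratio beyond the lists included several with no part in dopamine signalling. Unc13c, a synaptic vesicle priming factor, stood at 565 CPM in D1 nuclei, 436 in D2 nuclei, 13.2 in excitatory and 17.2 in other GABAergic nuclei. Dach1, a transcriptional regulator, stood at 447, 340, 22.2 and 53.1 CPM in the same sets. Stk32a stood at 144, 112, 2.93 and 24.1 CPM, and Gulp1 at 164, 105, 4.82 and 10.3 CPM. Prkch, a protein kinase C isoform, stood at 118 CPM in D1 nuclei and 4.30 CPM in excitatory nuclei. All 5 were close in D1 and D2 nuclei, with ratios from 1.28 to 1.56.

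Receptors of other transmitters held a few genes that differed from each set of neurons. Of 30 neuromodulator receptors, 12 could be compared with D2 nuclei. Of these, Drd3 and Oprk1 were at least 2-fold higher and Adora2a was lower (0.319% and 0.212% over all genes). The median log2 ratio was -0.08. Against excitatory nuclei 4 of 18 were at least 2-fold higher and 1 lower (median log2 ratio -0.19, against shares over all genes of 5.19% and 6.95%). Drd3, the D3 dopamine receptor, was found in 49 of 190 D1 nuclei and stood at 47.0 CPM in them, 20.1 CPM in D2 nuclei and 0.521 CPM in excitatory nuclei. Oprk1, the dynorphin receptor, stood at 39.3, 19.6 and 2.54 CPM in the same sets. Chrm3, the M3 acetylcholine receptor, was low, at 155 CPM against 724 CPM in excitatory nuclei. Of 20 glutamate receptor genes, 19 could be compared with D2 nuclei, and only Grik3 was past 2-fold. Their median log2 ratio was -0.01, and 0.319% of all genes were higher and 0.212% lower. Against excitatory nuclei 3 of 20 were higher and 5 lower (5.19% and 6.95% over all genes), among them Grm3 at 638 against 159 CPM and Grin2a at 934 against 2049 CPM.

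Of 32 channel genes, 0 of 28 were past 2-fold against D2 nuclei, where 0.319% of all genes were higher and 0.212% lower. Against excitatory nuclei 4 channel genes were higher and 5 lower (5.19% and 6.95% over all genes). Their median log2 ratio there was -0.04, as over all genes. Kcnj2, an inward rectifier potassium channel, stood at 26.6 CPM in D1 nuclei and 4.95 CPM in excitatory nuclei, a ratio of 5.37 (3.66 to 7.80). Kcnj6, a G protein-gated potassium channel, stood at 74.2 against 306 CPM. Among 14 GABA receptor genes, Gabrd, the delta subunit, stood at 66.4 against 12.3 CPM and Gabra5 at 68.1 against 141 CPM.

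D1 nuclei were not uniform in several striatal genes. With each nucleus thinned to 2000 UMIs, the Fano factor (variance over mean, 1 for pure counting noise) had a median of 1.06 over 2964 genes. It was 3.54 for Phactr1, 2.50 for Foxp2, 1.85 for Ebf1, 1.83 for Brinp3, 1.79 for Foxp1, 1.55 for Ptprm and 1.43 for Reln. Lower values were 1.26 for Tac1, 1.11 for Meis2 and 0.99 for Ppp1r1b. These genes differ in level, with thinned means of 1.64 UMIs per nucleus for Foxp2, 2.3 for Meis2 and 0.111 for Ppp1r1b. The part of level in the Fano factors was not tested. Erbb4, a marker of interneurons, had a Fano factor of 8.10, or 9.49 without the marked nuclei, with 0 to 256 UMIs per nucleus. That of Dpp10 was 6.86, or 1.73 without the marked nuclei.

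Splitting D1 nuclei by Reln, a choice made after these values were seen, separated nuclei rich in Ebf1 from nuclei rich in Foxp2. At least 1 Reln UMI was found in 133 D1 nuclei (median of 7532 UMIs per nucleus) and none in 57 (median of 6948). Foxp2 stood at 576 CPM in nuclei with Reln (535 to 618) and 1330 CPM in nuclei without (1230 to 1435), and its median per nucleus was 506 and 899 CPM. Ebf1 stood at 202 CPM with Reln (178 to 227) and 44.3 CPM without (27.7 to 67.0), with a UMI in 82 of 133 and 11 of 57 nuclei. Tac1 hardly differed, at a ratio without over with of 1.12 (0.899 to 1.38). The ratio of Drd1 was 1.05 (0.853 to 1.28), but the rule used Drd1, so nothing is read from it.

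Some eccentric genes and 1 patch gene went with Foxp2 in this split. Col11a1 and Tshz1, genes of eccentric medium spiny neurons, stood at 80.5 and 90.5 CPM without Reln and at 23.7 and 36.6 CPM with it. Sema5b, a patch gene, stood at 80.5 against 29.8 CPM, and Drd3 at 82.5 against 33.6 CPM. The other patch genes were closer, with Oprm1 at 80.5 against 85.5, Bach2 at 78.5 against 71.8, Khdrbs3 at 185 against 141, Lypd1 at 32.2 against 26.7, Kremen1 at 8.05 against 7.63 and Rasgrp1 at 119 against 160 CPM. Without the marked nuclei the ratio without over with was 2.70 for Foxp2, 7.78 for Col11a1 and 0.174 for Ebf1, and within the male mouse 2.45, 5.78 and 0.0552. Zfp521 was lower without Reln, at a ratio of 0.514 (0.281 to 0.886), but at 0.859 within the male mouse. D2 nuclei split by Reln did not show the Foxp2 difference, at a ratio of 0.823 (0.683 to 0.991), nor those of Tshz1 (0.904) and Sema5b (0.879). Ebf1, at 0.549 (0.145 to 1.83), and Drd3, at 1.58 (0.797 to 3.24), lay on the same side of 1 as in D1 nuclei, with wide intervals. No test was made between the ratios of D1 and D2 nuclei.

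**Figure D5:**
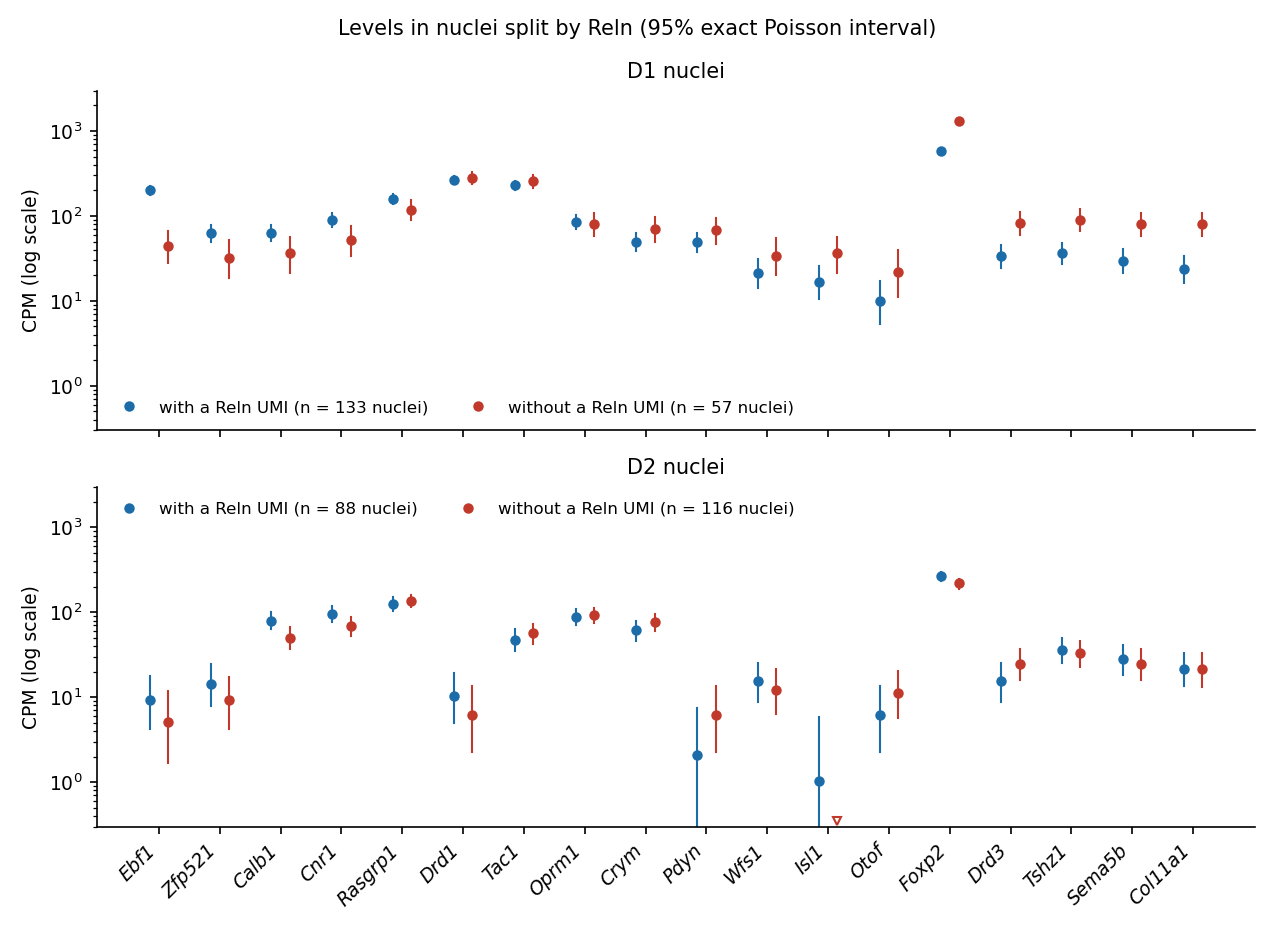
Level of 18 genes (y axis, CPM, log scale) in D1 nuclei (top) and D2 nuclei (bottom) with and without a Reln UMI; points are levels, lines are exact Poisson 95% intervals and the open triangle stands for 0 UMIs. In D1 nuclei Ebf1 is higher with Reln and Foxp2, Tshz1, Sema5b and Col11a1 higher without, while in D2 nuclei Foxp2 lies at nearly the same level on both sides.

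In a split by Pdyn, also chosen after its values were seen, some of the same genes differed. In the 57 nuclei with a Pdyn UMI, Drd3 stood at 71.3 CPM (51.1 to 96.7), against 35.7 CPM (26.0 to 48.0) in the 133 without. Isl1 stood at 34.8 CPM (21.2 to 53.7) against 16.2 CPM (9.92 to 25.1). It had 20 UMIs on each side, and its intervals overlapped. Tshz1 ran the other way, at 29.5 CPM (17.2 to 47.3) against 61.7 CPM (48.6 to 77.2). Without the marked nuclei the intervals of Drd3, Isl1 and Tshz1 each overlapped. Foxp2 stood there at 763 CPM (680 to 853) with Pdyn and 1037 CPM (960 to 1118) without. Reln stood at 261 (214 to 315) and 428 CPM (379 to 481), and Ebf1 at 128 (95.6 to 168) and 222 CPM (188 to 262). Cnr1 stood at 44.3 (26.3 to 70.0) and 98.2 CPM (75.6 to 125). Within the male mouse these genes were closer, with Foxp2 at 848 (741 to 967) and 915 CPM (840 to 995). Named subtypes were harder to see. Oprm1, the mu opioid receptor that marks patches, had at least 2 UMIs in 32 of 190 D1 nuclei (16.8%, 11.8 to 22.9%), and its level of 84.1 CPM was near the 90.7 CPM of D2, 73.9 CPM of excitatory and 87.6 CPM of other GABAergic nuclei. At least 2 UMIs of an eccentric gene were found in 38 of 190 nuclei (20.0%, 14.6 to 26.4%). Either was found in 63 nuclei (33.2%, 26.5 to 40.3%), but in 4.21% of nuclei thinned to 2000 UMIs, so these shares depend on depth.

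Markers of other cell types were present in the D1 nuclei, some of them above their level in excitatory nuclei, and their part in the results was not tested. Summed over 6 genes each, oligodendrocyte genes stood at 664 CPM in D1, 689 in D2, 358 in excitatory and 6189 in oligodendrocyte nuclei, and microglia genes at 440 CPM in D1, 505 in D2 and 314 in excitatory nuclei, with no member at 0. Of the 6 oligodendrocyte genes 3 were at least 2-fold higher in D1 than in excitatory nuclei and 0 lower (5.19% and 6.95% over all genes). Summed over 10 genes, hippocampal principal neuron genes stood at 295 CPM in D1 nuclei and 1179 CPM in excitatory nuclei, with no member at 0. That sum was 204 CPM in the 138 unmarked D1 nuclei and 423 CPM in the 52 marked ones. Of 8 members compared, 6 were at least 2-fold lower than in excitatory nuclei and 0 higher (6.95% and 5.19% over all genes). Interneuron genes summed to 1585 CPM in D1, 1105 CPM in D2 and 8754 CPM in other GABAergic nuclei, and Erbb4 gave 901 CPM of the first. Within the male mouse 2 of 3 interneuron genes compared were at least 2-fold higher in D1 than in D2 nuclei and 0 lower (0.775% and 0.74% of all 2837 genes there). They were Adarb2, at 437 against 90.1 CPM, and Erbb4, at 667 against 249 CPM. Vascular genes summed to 18.8 CPM. The astrocyte list stood higher in D1 nuclei (738 CPM) than in excitatory nuclei (165 CPM), and Slc4a4, a bicarbonate transporter, gave 627 CPM of it (489 CPM in D2 nuclei). Slc4a4 was found in 188 of 190 D1 nuclei, and the other 5 astrocyte genes lay between 11.6 and 43.2 CPM.

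The amygdala, which borders both structures, also holds GABA neurons with Foxp2 and Tshz1. Of its 6 other listed genes, Sst stood at 80.8 CPM in D1, 90.2 in D2, 103 in excitatory and 246 in other GABAergic nuclei. The rest had few UMIs in D1 nuclei, with Crh at 0 UMIs, Cyp26b1 at 1, Prkcd at 8 (4.43 CPM, against 31.7 CPM in other GABAergic nuclei), Tac2 at 13 and Nts at 21. Genes of GABA synthesis and transport were present, with Gad1 at 98.5 CPM and Gad2 at 181 CPM, 0.287 and 0.395 times the levels of the GABAergic nuclei chosen by these 2 genes. Slc17a7, the vesicular glutamate transporter, stood at 70.3 CPM against 399 CPM in the excitatory nuclei chosen by it. The 8 listed amygdala genes summed to 939 CPM in D1, 390 in D2 and 408 in other GABAergic nuclei. Foxp2 gave 783 CPM of the D1 sum. Whether some D1 nuclei, such as those rich in Foxp2 and Tshz1, came from the amygdala was not tested. No set of amygdala nuclei was compared. The name of a striatal D1 neuron, in a sample labelled hippocampus, rests on the genes of the rule and on the markers Tac1 and Pdyn.

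Activity-regulated and amyloid genes gave no sharp contrast with D2 nuclei. Of 13 immediate-early genes only Homer1 had enough UMIs for a comparison with D2 nuclei, at 277 and 236 CPM, and Fos had 7 UMIs in D1 nuclei. Against excitatory nuclei 4 of 10 were at least 2-fold lower (6.95% over all genes), among them Bdnf at 15.5 against 38.8 CPM and Nr4a3 at 12.2 against 31.1 CPM. Of 11 amyloid pathway genes, 0 of 7 were past 2-fold against D2 nuclei, where 0.319% of all genes were higher and 0.212% lower. App stood at 683 CPM in D1, 647 in D2 and 662 in excitatory nuclei, and the counts have no separate row for the human transgene. Thy1 stood at 231 CPM in D1 and 519 CPM in excitatory nuclei, a ratio of 0.445 (0.402 to 0.491).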

How the data were processed

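Nuclear RNA of hippocampus was counted in 2 libraries of 2 pooled mice each. The deposited files hold raw counts, whole UMI counts per gene and barcode, made by the authors with Cell Ranger 7.0.0, per the file headers. The mm10 build and Seurat are named in the submitters' processing notes. The annotation release, strand setting and counting of introns were not given in the sources used here. Where a named gene overlaps another gene, its reads may be shared.

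The D1 rule was applied to raw counts without clustering (Python 3.11.15, numpy 2.4.6, scipy 1.17.1, pandas 2.3.3). UMIs were summed per set of nuclei and scaled to CPM. Genes with at least 100 UMIs over both sets were compared, and 2-fold was the limit for a call. Levels carry exact Poisson intervals, shares exact Clopper-Pearson intervals and ratios exact conditional binomial intervals, all at 95%. The ratio calculation was tested on simulated data. Doublets were scored with Scrublet in scanpy 1.11.5, with the threshold at the expected share of 20.2% (0.8% per 1000 barcodes). They were marked and kept. Scrublet's automatic threshold would mark 22.0%.

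Coordinates came from GENCODE M21 (GRCm38), which matched 32235 of 32285 gene IDs. RefSeq promoter windows were found for 10 of 16 genes looked up. Members and gene lists were chosen with earlier results of these data known. Every list member could be named. Beyond the lists, the rule named the 10 genes of highest and the 10 of lowest ratio over D2 nuclei with at least 100 UMIs in the higher set, and the 10 highest over excitatory and over other GABAergic nuclei with at least 200 UMIs in D1 nuclei. Dpp10 was chosen after its values were seen. With 1 library per genotype no test was made.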

Additional observations from a re-analysis of the deposited data

How the results depend on the processing

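No paired analysis was possible because each genotype has 1 library, no test was made and the second library holds no D1 nucleus. Of 2380 D1 over D2 ratios recomputed for 186 genes under the alternatives, 1955 stayed within the interval of the ratio reported, 422 moved outside it and 3 reversed. The 3 reversals were all in the female mouse, whose 7 D1 nuclei were all marked as doublets: Il1rapl2 at 0.551, Npas3 at 1.28 and Trpc4 at 2.36. The female mouse also gave a D1 share of D1 plus D2 nuclei of 36.8%, 71.4% of D1 nuclei with Oprm1 or eccentric genes, 4 genes higher and 2 lower than in D2 nuclei, and 73 higher than in other GABAergic nuclei.

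The number of D1 nuclei was 70 with under 1% mitochondrial UMIs and 76 with at least 3 UMIs of a receptor, and the latter gave a D1 share of 38.8%. Under 1% mitochondrial UMIs 41.4% had Oprm1 or eccentric genes and 179 genes were higher than in other GABAergic nuclei. Without marked nuclei the male share was 100%, Oprm1 or eccentric genes were found in 24.6%, and 19 genes were lower than in D2 nuclei. The male mouse alone gave 21 genes lower than in D2 nuclei, or 0.74% of 2837 compared, against 0.212% of 5649 over both mice. It gave 348 higher than in excitatory nuclei, or 5.3% of 6571, against 5.19% of 11449 over both mice. The mean of CPM per nucleus gave 23 genes lower than in D2 nuclei.

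Depth limits the counts of genes. Thinning to 2000 UMIs gave 9 genes higher and 7 lower than in D2 nuclei, 318 higher than in excitatory and 128 higher than in other GABAergic nuclei, and 4.21% of D1 nuclei with Oprm1 or eccentric genes, while a limit of 1 UMI gave 61.1%. A minimum of 30 UMIs gave 100 genes higher and 92 lower than in D2 nuclei, 1082 higher than in excitatory and 631 higher than in other GABAergic nuclei. The number of genes compared also changes with the setting and the nuclei used, so these counts are not shares. Both alternatives of the split by Reln were chosen after seeing the data. The causes were not tested.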
